A study of Homo sapiens with 9 samples.

Results

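The genes described here are the heat shock proteins and the DNAJ co-chaperones of HMEC-1 cells, with the stress regulator HSF1 and the co-chaperone BAG3. Members were taken by symbol: names that start with HSPA, HSPB, HSPD, HSPE, HSPH or HSP90, or with DNAJA, DNAJB or DNAJC and a number, plus HSF1 and BAG3, without HSPBAP1 and without names that end like those of pseudogenes. This gave 65 of the 18690 genes counted, of which 39 were DNAJ genes, 24 were heat shock protein genes and 2 were the named regulators. The 24 include HSPB2-C11orf52, a readthrough locus taken in by its symbol, with 7 to 26 reads per library. A further 17 matching symbols were dropped by the rule, among them HSPBP1, a protein-coding exchange factor of Hsp70 whose name ends like that of a pseudogene. All 64 members counted for every library entered the tests, and HSPA6, counted for AMI-5 and control libraries, is given apart.

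HMEC-1 cells are human microvascular endothelial cells made immortal and kept as a line, here grown at 5.5 mM glucose. Cells received AMI-5 at 100 µM, AMI-1 at 100 µM, or the solvent DMSO that all 3 groups share, for 16 h, and poly-A RNA was sequenced from 3 libraries per group, 9 in all. The study describes both compounds as methyltransferase inhibitors; its design text names AMI-5 as a brominated oxoxanthene benzoate salt and AMI-1 as a urea that joins a pair of hydroxynaphthalene sulfonic acid units. The labels do not say that the 3 libraries of a group were separate cultures, so p-values rest on the spread among these libraries alone, which may be technical. The cells are 1 line, and each compound was used at 1 dose and 1 time.

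Chaperones bind unfolded or partly folded proteins. Hsp70 proteins clamp a client while they hydrolyse ATP; J proteins (the DNAJ family) bring clients and trigger the hydrolysis, and exchange factors such as the Hsp110 proteins and BAG3 release ADP and the client. Hsp90 acts later, on near-native kinases and receptors, small heat shock proteins hold unfolded chains without ATP, and the Hsp60 and Hsp10 chaperonin encloses proteins in the mitochondrial matrix. HSF1 is the transcription factor that induces the cytosolic set when unfolded protein accumulates, by binding repeats of the 5-base unit nGAAn, called heat shock elements, while the lumenal set of the endoplasmic reticulum answers to factors that bind the ER stress response element.

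The promoters of 5 members are shown because they carry these elements beside genes whose values are given below. Each is the 250 bases before the RefSeq start on GRCh38.p14, 5′ to 3′ on the gene's strand, from windows that matched 57 of the 65 members. Capitals mark the match to GAANNTTC, a pair of inverted units, in HSPA1B, HSPA1A and HSPB1, to the triple unit on either strand in HSPA8 (the same letters with another unit, GAA, after any 2 further bases), and to the ER stress response element in HSPA5 (CCAAT, any 9 bases, then CCACG).
HSPA1B: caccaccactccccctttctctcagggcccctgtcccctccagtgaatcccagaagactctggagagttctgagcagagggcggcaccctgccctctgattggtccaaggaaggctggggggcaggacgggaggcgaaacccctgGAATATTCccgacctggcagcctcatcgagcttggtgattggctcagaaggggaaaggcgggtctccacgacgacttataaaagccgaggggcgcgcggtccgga
HSPA1A: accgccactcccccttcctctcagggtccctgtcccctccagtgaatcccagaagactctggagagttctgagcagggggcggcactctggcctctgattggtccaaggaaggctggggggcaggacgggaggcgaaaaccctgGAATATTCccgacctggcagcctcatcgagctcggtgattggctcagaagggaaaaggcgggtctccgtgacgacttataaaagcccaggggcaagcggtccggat
HSPB1: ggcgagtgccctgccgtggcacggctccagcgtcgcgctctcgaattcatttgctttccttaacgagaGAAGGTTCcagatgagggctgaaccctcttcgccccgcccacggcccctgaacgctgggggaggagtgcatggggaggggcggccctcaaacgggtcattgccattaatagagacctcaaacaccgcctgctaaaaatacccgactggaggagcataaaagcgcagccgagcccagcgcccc
HSPA8: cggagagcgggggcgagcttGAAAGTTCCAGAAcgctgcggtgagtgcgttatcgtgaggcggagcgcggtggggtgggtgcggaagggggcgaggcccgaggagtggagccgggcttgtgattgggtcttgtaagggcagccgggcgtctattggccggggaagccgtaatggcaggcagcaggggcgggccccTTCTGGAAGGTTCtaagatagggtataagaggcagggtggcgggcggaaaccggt
HSPA5: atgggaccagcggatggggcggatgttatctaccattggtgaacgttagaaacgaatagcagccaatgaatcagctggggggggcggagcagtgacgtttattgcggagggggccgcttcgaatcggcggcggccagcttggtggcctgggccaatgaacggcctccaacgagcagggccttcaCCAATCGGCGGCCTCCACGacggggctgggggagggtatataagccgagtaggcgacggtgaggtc

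The windows lie at chr6:31827488-31827737 (plus strand) for HSPA1B, chr6:31815293-31815542 (plus) for HSPA1A, chr7:76302423-76302672 (plus) for HSPB1, chr11:123062137-123062386 (minus) for HSPA8 and chr9:125241344-125241593 (minus) for HSPA5. Searched on both strands, GAANNTTC was in 11 of the 57 member windows (19.3%), against 5.85% of all 27305 windows of that length. The pair in the other orientation, TTCNNGAA, was in 5 (8.77%), against 6.72%, and the CCAAT box in 23 (40.4%), against 33.0%. The triple unit, which contains GAANNTTC, was in 3 members (DNAJB6, HSPA6 and HSPA8), 5.26% against 0.439% of all windows, and the ER element was in 2 (HSP90B1 and HSPA5), 3.51% against 0.0806%. The windows of HSPA1A and HSPA1L overlap on opposite strands, and that of HSPA1B is a near copy. All of these match GAANNTTC and CCAAT, so the member windows are not independent. These are letter matches and show no binding.

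Total counts over the genes in both tables ran from 14451343 to 24691456 per library, of which the members held 0.820% to 1.05%. Of 12 endothelial markers 10 were counted in all libraries, including CDH5, ENG, TIE1, KDR and VWF, while PECAM1 and CLDN5 had no row in both tables. Their levels were uneven. Across the 9 libraries VWF had 5.38 to 9.51 CPM and KDR 14.5 to 22.3 CPM, against 97.1 to 206 CPM for TIE1. ENG had at least 280 CPM in each library and so weighed heavily in the sum. The 10 summed to 704 to 970 CPM (counts scaled to library size, TMM-normalised) with AMI-5, 914 to 1176 CPM with AMI-1 and 848 to 1236 CPM in control libraries. The 6 counted markers of fibroblast and mural cells, a list that cultured endothelial cells also express in part, summed to 2452 to 3169 CPM with AMI-5, 3101 to 4138 CPM with AMI-1 and 2995 to 4454 CPM in control libraries. Their part in the results below was not tested. CD14 was the 1 of 5 leukocyte markers counted, at no more than 2.91 CPM, and of 5 epithelial markers EPCAM and CDH1 had no row in both tables. The other 3, the keratins KRT8, KRT18 and KRT14, summed to 201 to 372 CPM with AMI-5, 264 to 391.7 CPM with AMI-1 and 237 to 411 CPM in control libraries.

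The members varied more by replicate number than by treatment. Across the 64 members, a median of 77.7% of the variance of log2 CPM went with the replicate number and 8.86% with the treatment group, and 54 members varied more by number. HSP90AA1, the inducible cytosolic Hsp90, shows this: it stood at 843, 1319 and 919 CPM with AMI-5, at 734, 1231 and 994 CPM with AMI-1 and at 721, 1351 and 903 CPM in control libraries 1, 2 and 3. Library 2 was the highest in each group. HSPB1, the small heat shock protein Hsp27, ran the other way, with library 2 the lowest in each group. Over all genes the deviations of same-numbered libraries from their group means correlated in all 9 pairs, at 0.431 to 0.871. The coefficient of variation that edgeR fitted over all genes fell from 23.7% to 5.64% once the replicate number was included. The larger spread by number is thus not particular to the members, and the variance shares above were not computed over all genes. Over the 64 members alone 2 of the 9 pairs did not deviate together: AMI-5 and AMI-1 libraries 3 (r −0.06) and AMI-1 and control libraries 3 (−0.088), while the highest r of libraries with different numbers was 0.769. Each comparison is given without and with the number as a block.

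Without the block, edgeR's quasi-likelihood test called 0 of 64 members in each of the 3 comparisons, and the background was 0% of 18284 genes in each. No member had an unadjusted p under 0.05 in that fit in any of the 3 comparisons, against 485 of all genes for AMI-5 against control, and DESeq2's Wald test in the same design also called 0 members. A call here is an adjusted p under 0.05 over all genes. With the block, 5 of 64 members (7.81%) were called for AMI-5 against control, where the background was 10.9% of all genes, so the members' share was not above it. Of these, HSPA1B and HSPA4L were higher (background 3.44% for higher calls) and HSF1, HSPB1 and DNAJC5 were lower (7.51% for lower calls). With 1 library left out the members' count moved with that of all genes. It was 1 (1.56%) without control library 3, AMI-5 library 1 or AMI-5 library 2, where 1.54%, 0.848% and 1.69% of all genes were called, 2 (3.12%) without control library 1 against 1.75%, and 3 (4.69%) without AMI-1 library 1 against 7.13%. It was 13 (20.3%) without AMI-1 library 2 against 16.2% of all genes, 12 (18.8%) without AMI-5 library 3 against 15.9%, and 16 (25%) without AMI-1 library 3 against 23.4%. With the block, 0 members were called for AMI-1 against control (background 0.41%), where 8 members had an unadjusted p under 0.05, in a fit with 10.1% of all genes under it. For AMI-5 against AMI-1 there were 5 (7.81%), against a background of 5.1%. In bulk RNA, fewer cells that express a gene and less RNA per cell cannot be told apart.

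**Figure D1:**
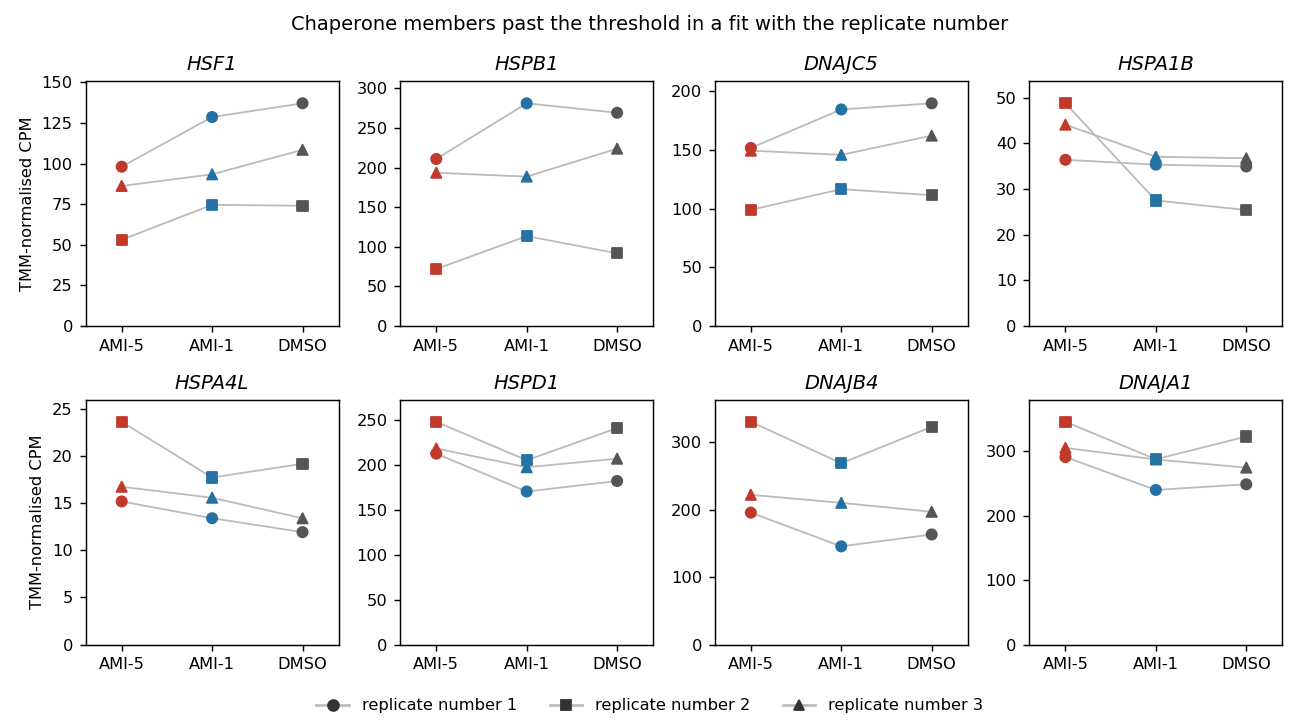
TMM-normalised CPM (vertical axes, from 0) of the 8 members past the threshold in any comparison of the fit with the replicate block; each point is a library, and grey lines join libraries with the same replicate number. The lines of HSF1 run lower with AMI-5 than with DMSO in 3 of 3 numbers, while the levels of the numbers themselves differ more than those of the groups.

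HSF1 had the lowest adjusted p of the members for AMI-5 against control. It stood at 98.1, 53.1 and 86.2 CPM in AMI-5 libraries 1, 2 and 3, at 129, 74.6 and 93.4 CPM with AMI-1 and at 137, 74.0 and 108 CPM in control libraries. The AMI-5 and control groups overlapped, but within each number the AMI-5 library was the lower. With the block, HSF1 fell to 0.74-fold of control with AMI-5 (log2 −0.43 ± 0.07 SE, edgeR adjusted p 0.0011), and the call was kept in 9 of 9 fits that left out 1 library, with an adjusted p of at most 0.0479. HSF1 transcripts are rich in GC (64.7%), and with a correction for transcript GC the log2 difference was −0.21 with an adjusted p of 0.00056. With AMI-1 the log2 difference of HSF1 from control was −0.10 (95% interval −0.24 to 0.04, edgeR adjusted p 0.64). BAG3, the exchange factor that links Hsp70 to small heat shock proteins and to selective autophagy and is itself an HSF1 target, had 125, 89.2 and 123 CPM with AMI-5, 146, 95.9 and 120 CPM with AMI-1 and 147, 102 and 132 CPM in control libraries. It was lower than control in 3 of 3 pairs with each compound, with log2 values of −0.17 (edgeR adjusted p 0.063) for AMI-5 and −0.08 (0.70) for AMI-1. Its transcript GC is 56.9%, and after GC correction the AMI-5 value was −0.07 (adjusted p 0.28).

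Among the Hsp70 genes the inducible pair HSPA1A and HSPA1B was highest in AMI-5 library 2. HSPA1B had 36.4, 48.8 and 44.1 CPM with AMI-5, 35.3, 27.5 and 37.1 CPM with AMI-1 and 34.9, 25.4 and 36.7 CPM in control libraries. AMI-5 library 1 lay within the control range and the other two lay above it. With the block HSPA1B rose to 1.33-fold of control with AMI-5 (log2 0.41 ± 0.12 SE, edgeR adjusted p 0.041), and the 3 pair differences were 0.06, 0.94 and 0.26. The call was kept in 3 of 9 fits that left out a library: it was lost without control library 2 or 3, without AMI-1 library 3 and without any 1 of the AMI-5 libraries, with log2 values from 0.18 to 0.58 and adjusted p from 0.0438 to 0.287 over the 9. After GC correction its log2 difference was 0.53 with an adjusted p of 0.21. HSPA1A had 22.0, 30.7 and 27.4 CPM with AMI-5, 27.3, 19.5 and 21.7 CPM with AMI-1 and 22.8, 19.9 and 22.2 CPM in control libraries, and its difference for AMI-5 was not past the threshold (log2 0.29 ± 0.12, edgeR adjusted p 0.12).

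Reads of HSPA1A and HSPA1B are hard to assign, since 71.4% of the 50-base windows of the longest HSPA1B transcript also occur in that of HSPA1A (GENCODE release 29). Their promoters above are near copies as well. Summed over both genes, the AMI-5 to control ratio was 1.01 in pair 1, 1.75 in pair 2 and 1.21 in pair 3, and the AMI-1 to control ratio was 1.08, 1.04 and 0.997. Most of the rise came from pair 2. HSPA6, the strictly inducible Hsp70B′ whose promoter window holds the triple unit, was near the floor of detection, with 10, 16 and 13 reads in AMI-5 libraries and 2, 7 and 12 reads in control libraries. No deposited gene had a mean count under 10, and HSPA6 passed only with the AMI-5 libraries, where it was higher. That condition favours a positive difference, so the fit cannot test induction of HSPA6. Fitted on the table of AMI-5 and control libraries with no filter on low counts, it gave a log2 value of 0.87 ± 0.54 SE without the block (edgeR adjusted p 1.0) and 0.84 ± 0.40 with it (adjusted p 0.13).

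The abundant constitutive Hsp70 genes moved little. HSPA8, the constitutive cytosolic Hsc70, was the most abundant member at 601 CPM per kilobase in control libraries, and had 1471, 1619 and 1462 CPM with AMI-5, 1233, 1495 and 1454 CPM with AMI-1 and 1341, 1643 and 1458 CPM in control libraries. Its AMI-5 log2 difference from control was 0.04 with a 95% interval of −0.07 to 0.15. HSPA5, the BiP of the endoplasmic reticulum, had 829, 811 and 834 CPM with AMI-5, 827, 765 and 823 CPM with AMI-1 and 862, 850 and 877 CPM in control libraries. Both treated groups lay below all control libraries without overlap, but by little: the log2 values were −0.07 (95% interval −0.17 to 0.04, edgeR adjusted p 0.41) for AMI-5 and −0.10 (−0.20 to 0.00, adjusted p 0.50) for AMI-1. HSPA9, the mitochondrial mortalin, differed from control by −0.0046 with AMI-5 and by −0.08 with AMI-1 on the log2 scale.

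Of the Hsp110 exchange factors, HSPA4L (Apg-1) rose with AMI-5. It had 15.2, 23.6 and 16.7 CPM with AMI-5, 13.4, 17.7 and 15.6 CPM with AMI-1 and 11.9, 19.2 and 13.4 CPM in control libraries. The groups overlapped because library 2 was high in each, yet the 3 pair differences of 0.35, 0.30 and 0.32 were close to one another. With the block the log2 value was 0.32 ± 0.09 SE (1.25-fold, edgeR adjusted p 0.031). The call was lost without control library 1 or 3 and without AMI-5 library 1 or 2 (adjusted p 0.003 to 0.23 and log2 0.28 to 0.38 over 9 fits), and with GC correction, where the log2 value was 0.20 (adjusted p 0.081). The more abundant HSPH1 and HSPA4 had AMI-5 log2 values of 0.04 and 0.03, neither of them called.

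The 3 Hsp90 genes among the members were not called for AMI-5 or AMI-1 against control with the block alone. TRAP1, the mitochondrial Hsp90, falls outside the symbol rule and is given with the partner genes below, where it was called lower with AMI-5. HSP90AB1, the constitutive cytosolic form, had 1012, 980 and 970 CPM with AMI-5, 912, 991 and 929 CPM with AMI-1 and 996, 1088 and 1013 CPM in control libraries. The AMI-1 libraries lay below all control libraries, with pair differences of −0.13, −0.14 and −0.13, and a log2 value of −0.13 ± 0.05 (edgeR adjusted p 0.38). HSP90B1, the GRP94 of the endoplasmic reticulum, had 729, 1015 and 764 CPM with AMI-5, 641, 963 and 772 CPM with AMI-1 and 639, 1000 and 742 CPM in control libraries. Its log2 value was 0.08 for AMI-5 and 0.00 for AMI-1, below the spread between numbers.

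HSPB1, the actin-binding small heat shock protein abundant in endothelium, had 211, 71.9 and 193 CPM with AMI-5, 281, 113 and 189 CPM with AMI-1 and 269, 91.7 and 224 CPM in control libraries. Library 2 was far below the others in each group, and the AMI-5 library was below the control library in 3 of 3 pairs. With the block HSPB1 fell to 0.81-fold of control (log2 −0.30 ± 0.09 SE, edgeR adjusted p 0.036). That call was kept in 3 of 9 fits: leaving out any control library, AMI-1 library 1, or AMI-5 library 1 or 2 ended it (log2 −0.42 to −0.22, adjusted p up to 0.26). Its transcript GC is 64.3%, and after GC correction the log2 value was −0.09 (adjusted p 0.16). The other counted small heat shock proteins, HSPB6, HSPB8 and HSPB11, had AMI-5 log2 values of 0.37, 0.13 and 0.22, none called without the correction. HSPB6 and HSPB8 were low, at 1.03 and 0.913 CPM per kilobase with AMI-5, 0.958 and 0.762 with AMI-1 and 0.798 and 0.848 in control libraries. HSPB11, an intraflagellar transport subunit despite its name, was higher after GC correction (0.27, adjusted p 0.016).

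The chaperonin genes HSPD1 (Hsp60) and HSPE1 (Hsp10) lie head to head, and in counts of unknown strand reads near their shared start cannot be told apart. HSPD1 had 212, 247 and 218 CPM with AMI-5, 170, 205 and 197 CPM with AMI-1 and 182, 241 and 206 CPM in control libraries. All AMI-5 libraries were above all AMI-1 libraries, with the control libraries between and across them. HSPD1 had log2 values of 0.11 for AMI-5 (edgeR adjusted p 0.20) and −0.13 for AMI-1 (0.43) against control. HSPE1 differed from control by −0.01 with AMI-5 and −0.05 with AMI-1.

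Of the 39 DNAJ members, DNAJC5 was called for AMI-5 against control with the block. DNAJC5, the cysteine string protein of secretory vesicles, had 152, 99.0 and 149 CPM with AMI-5, 185, 117 and 146 CPM with AMI-1 and 190, 111 and 162 CPM in control libraries. It fell to 0.87-fold of control (log2 −0.20 ± 0.06 SE, edgeR adjusted p 0.046), and was lower in 3 of 3 pairs in groups that overlapped. The call was kept in 4 of 9 fits, ended without control library 1 or 3, AMI-1 library 1 or AMI-5 library 1 or 2 (log2 −0.28 to −0.14, adjusted p 0.002 to 0.32), and with GC correction (log2 −0.09, adjusted p 0.12). DNAJC13, the endosomal J protein RME-8, averaged 133 CPM with AMI-5, 152 CPM with AMI-1 and 146 CPM in control libraries. With AMI-5 it was above control in pair 1 and below it in pairs 2 and 3. It was not called with the block alone (log2 −0.13, edgeR adjusted p 0.18) and was called lower in the GC-corrected fit (−0.22, adjusted p 0.00023), where DNAJC14, a membrane J protein of the endoplasmic reticulum, was called higher (0.18, adjusted p 0.0067).

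Of J proteins known as stress targets, DNAJB1, DNAJB9 and DNAJC3 were not called in any comparison. DNAJA1 and DNAJB4, called between the compounds below, were not called for AMI-5 against control with the block. Both were higher in 3 of 3 of these pairs, with log2 values of 0.16 (edgeR adjusted p 0.074) and 0.15 (0.14). After GC correction the values were 0.08 (adjusted p 0.10) and −0.04 (0.46). DNAJB1, the inducible Hsp40 and a classical HSF1 target, had 139, 121 and 142 CPM with AMI-5, 143, 107 and 132 CPM with AMI-1 and 142, 118 and 150 CPM in control libraries. Its log2 values were −0.03 (95% interval −0.15 to 0.09) for AMI-5 and −0.11 (−0.23 to 0.01) for AMI-1. DNAJB9 (ERdj4) and DNAJC3 (P58IPK), lumenal cofactors of BiP that the unfolded protein response induces, had log2 values of 0.18 (edgeR adjusted p 0.27) and 0.02 (0.90) for AMI-5, and of 0.21 (0.50) and −0.02 (0.96) for AMI-1. The lowest DNAJ genes, DNAJB7 and DNAJC28, stood under 1 CPM per kilobase. Their AMI-5 log2 values were 0.45 (edgeR adjusted p 0.15) and 0.70 (0.051), neither called with the block. Both were higher in 3 of 3 pairs, and DNAJC28 was called in some fits that left out 1 library.

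**Figure D2:**
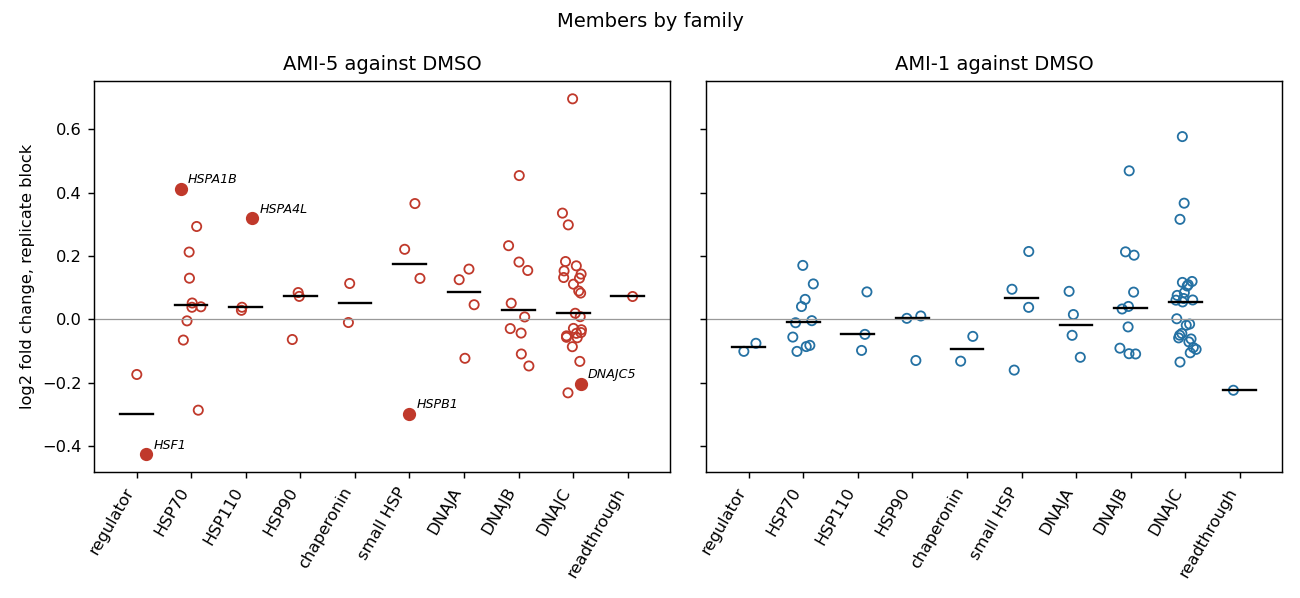
Log2 fold change (vertical axis) from the edgeR fit with the replicate block for the 64 tested members by family, AMI-5 against DMSO on the left and AMI-1 against DMSO on the right; filled points passed an adjusted p of 0.05, open points did not, and black lines are family medians. The 5 filled points are all on the AMI-5 side, and most members lie within 0.2 of 0 in both panels.

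Over all 64 members the median log2 value for AMI-5 against control with the block was 0.05, against −0.00 for all 18284 genes, with 40 members above 0 and 24 below. In 3 of 3 pairs 26 members (40.6%) were higher with AMI-5, where the background was 24.8%, and 9 (14.1%) were lower, against 28.8%. Groups that did not overlap were few: DNAJC22 was above control (background 3.98% for higher) and HSPA5 was below it (3.36% for lower). For AMI-1 the members' median was −0.00, with 32 above 0 and 32 below; 8 were higher and 10 lower in 3 of 3 pairs (background 14.4% and 15.7%). Both comparisons use the same control libraries, so their values are not independent.

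By compartment, the 30 cytosolic members totalled 5741 ± 421 CPM with AMI-5, 5427 ± 433 with AMI-1 and 5686 ± 625 in control libraries (SD, n = 3 each). Within pairs the cytosolic sum with AMI-5 was 1.06, 0.977 and 1.001 of control, and 1.103, 1.073 and 1.002 of AMI-1. With AMI-1 it was 0.961, 0.911 and 0.999 of control. The AMI-1 sum was thus the lowest of the 3 groups in 3 of 3 pairs, by little in the third. The 13 of the endoplasmic reticulum totalled 2319 ± 236 CPM with AMI-5, 2243 ± 201 with AMI-1 and 2270 ± 273 in control libraries. The 3 of vesicles and endosomes, DNAJC5, DNAJC6 and DNAJC13, totalled 290, 254 and 280 CPM with AMI-5, 332, 285 and 307 CPM with AMI-1 and 325, 287 and 312 CPM in control libraries. The AMI-5 to control ratios of this sum were 0.895, 0.882 and 0.897 in the 3 pairs, the tightest of any compartment. DNAJC5 and DNAJC13 made up nearly all of the sum, and the members did not move alike. Log2 pair differences were −0.32, −0.17 and −0.12 for DNAJC5 and 0.05, −0.21 and −0.23 for DNAJC13. For DNAJC6 they were −0.09, 0.35 and 0.30. The 5 nuclear members, HSF1 among them, summed to 0.897, 0.946 and 0.921 of control with AMI-5. The 8 mitochondrial members summed to 0.928, 0.921 and 0.951 of control with AMI-1, where 7 of the 8 had log2 values below 0, and to 1.05, 0.976 and 0.99 of control with AMI-5. These sums carry no test.

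**Figure D3:**
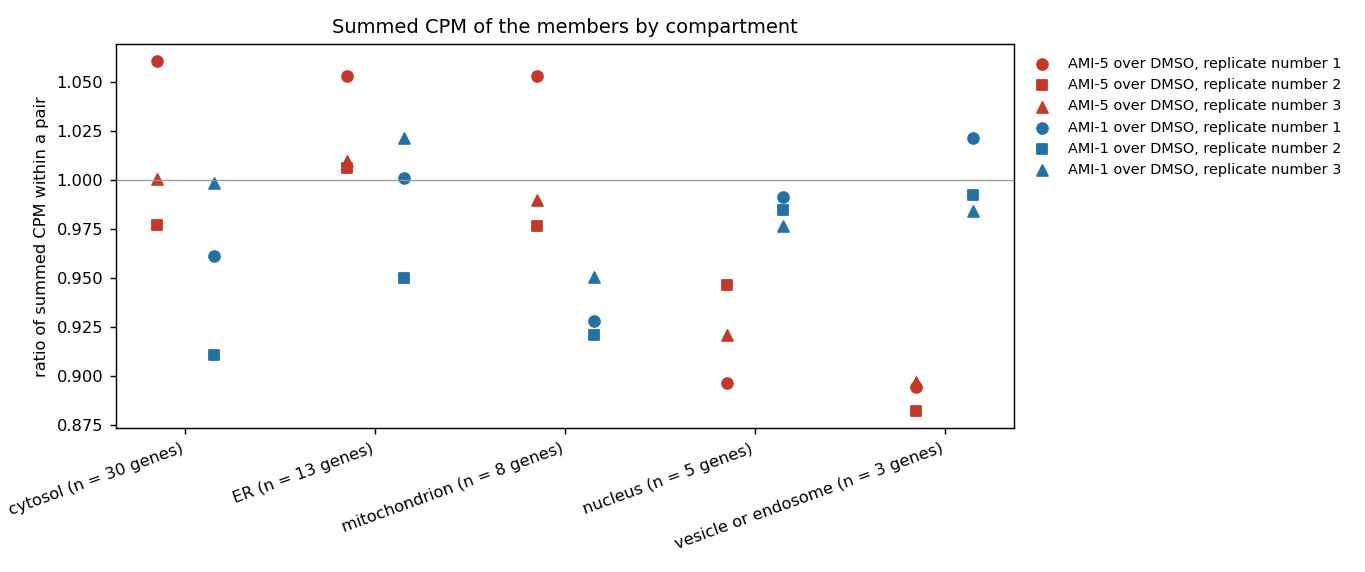
Ratio of summed CPM to the DMSO library with the same replicate number (vertical axis) for the members of each compartment, AMI-5 in red left of AMI-1 in blue, 1 symbol per replicate number. The sum of the vesicle and endosome set lies near 0.89 in the 3 AMI-5 pairs, though its members do not move alike. The mitochondrial sum lies from 0.921 to 0.951 in the 3 AMI-1 pairs.

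Transcript GC moved with the differences. Across the 64 members, Pearson's r between transcript GC and the AMI-5 log2 value was −0.46 (Spearman's rho −0.50), as a description over genes that share libraries, and −0.39 over all genes. Of the 14 members with a GC of 55% or more, 10 had values below 0 for AMI-5 (median −0.10), while 36 of the 50 others were above 0 (median 0.08). After the GC correction the r over members was 0.09, and the medians of the 14 and the 50 were 0.02 and 0.03. The corrected fit called 4 members for AMI-5 against control, 2 higher (HSPB11 and DNAJC14; background 5.29%) and 2 lower (HSF1 and DNAJC13; background 8.34%), 13.6% of all genes in either direction. HSF1 was thus called with and without the correction, while HSPB1, DNAJC5, HSPA4L and HSPA1B were not called with it. With robust shrinkage also off, HSPA1A and HSPA1B were called higher as well, 6 members in all (9.38%), where 13.2% of all genes were called.

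**Figure D4:**
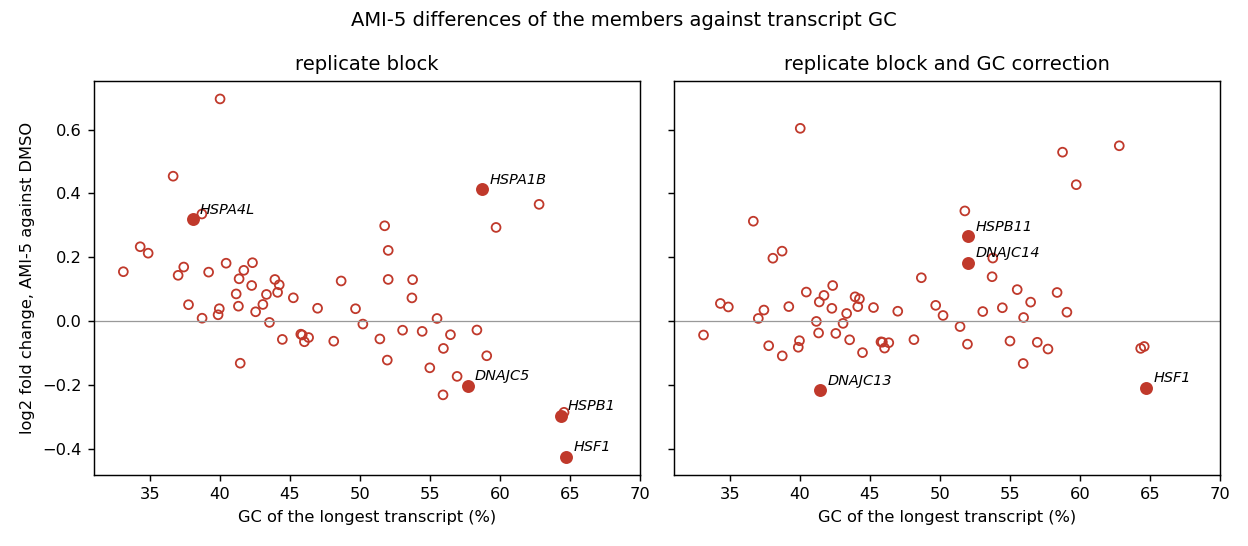
Log2 fold change for AMI-5 against DMSO (vertical axis) against the GC percentage of the longest transcript (horizontal axis) for the 64 tested members, with the replicate block alone on the left and with the GC correction on the right; filled points passed an adjusted p of 0.05. HSF1, at 64.7% GC, moves from −0.43 to −0.21 and stays filled.

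For AMI-1 against control the corrected fit called 4 members, all lower: HSP90AB1 (log2 −0.12, edgeR adjusted p 0.034), HSPH1 (−0.15, 0.0076), HSPD1 (−0.15, 0.013) and DNAJB4 (−0.22, 0.00025). The background was 2.14% for lower, 1.3% for higher and 3.44% for either. These 4 were also below 0 without the correction, at −0.13, −0.10, −0.13 and −0.11, where none was called. Groups that did not overlap were HSPA5 and HSP90AB1 on the lower side (background 2.06%) and DNAJC27 and DNAJC14 on the higher side (1.94%).

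AMI-5 and AMI-1 were compared directly at the same dose and time, as 1 pair of compounds. With the block 5 members differed: HSPD1, DNAJB4 and DNAJA1 were higher with AMI-5 (background 1.62%), and HSF1 and HSPB1 were lower (3.48%). HSPD1 was 1.19-fold higher (log2 0.25 ± 0.06 SE, edgeR adjusted p 0.015), with pair differences of 0.32, 0.27 and 0.15. DNAJB4, a type B partner of Hsp70, had 195, 330 and 222 CPM with AMI-5 and 145, 269 and 210 CPM with AMI-1, and was 1.20-fold higher (adjusted p 0.027). DNAJA1, the major cytosolic type A J protein, had 291, 346 and 306 CPM with AMI-5 and 240, 288 and 287 CPM with AMI-1, groups that did not overlap, and was 1.16-fold higher (adjusted p 0.036).

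HSF1 was 0.80-fold (adjusted p 0.0075) and HSPB1 0.79-fold (adjusted p 0.033) of the AMI-1 level with AMI-5; in both the third pair differed least, with log2 values of −0.11 for HSF1 and 0.04 for HSPB1. With 1 library left out, HSF1 kept its call in 6 of 9 fits, HSPD1 and DNAJB4 in 5, HSPB1 in 4 and DNAJA1 in 3. AMI-5 library 1 and AMI-5 library 2 each ended all 5 calls when left out, and so did AMI-1 library 1 (log2 0.20 to 0.29 for HSPD1, 0.20 to 0.37 for DNAJB4, 0.17 to 0.27 for DNAJA1, −0.41 to −0.26 for HSF1 and −0.50 to −0.20 for HSPB1 over 9 fits). In number, 17 members (26.6%) were called without AMI-1 library 3, where 18.9% of all genes were, 1 (1.56%) without AMI-1 library 2, against 3.22%, and 0 without AMI-1 library 1 or AMI-5 library 1 or 2, against 1.06%, 1.05% and 1.6%. AMI-1 library 2 ended those of HSPD1, DNAJB4, DNAJA1 and HSPB1, control library 2 that of HSPB1, and control libraries 1 and 3 that of DNAJA1. The GC-corrected fit kept these 5 and added HSPA8 (log2 0.11, adjusted p 0.029) as higher and DNAJC13 as lower, 4 higher against a background of 4.99% and 3 lower against 6.85%, or 7 in all against 11.8%.

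The compounds were not shown to differ for the rest of the set. The interval of the AMI-5 minus AMI-1 difference was −0.07 to 0.19 on the log2 scale for HSP90AA1, −0.07 to 0.14 for HSPA5 and −0.04 to 0.20 for DNAJB1. In all, 44 members were above 0 and 20 below, with a median of 0.04, and 13 were higher (20.3%, background 16.7%) and 7 lower (10.9%, background 18.5%) in 3 of 3 pairs. Groups did not overlap for DNAJA1, DNAJC6 and HSPD1 on the higher side (background 4.21%) and for DNAJC18 on the lower side (3.28%).

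Level per length set the members apart by more than the treatments did. In control libraries HSPA8 stood at 601 CPM per kilobase, HSP90AB1 at 386, HSP90AA1 at 282, HSP90B1 at 262, HSPA5 at 221, HSPB1 at 134 and DNAJA1 at 119. HSPA8 was above all others in each control library, and HSP90AB1 was above HSP90AA1, HSP90B1 and HSPA5 in each. The order of HSP90AA1, HSP90B1 and HSPA5 changed between control libraries, so it was not distinguished from the spread. The inducible pair HSPA1B and HSPA1A was low by comparison, at 12.8 and 8.72 CPM per kilobase. This did not hold for all inducible members, since DNAJB1 stood at 60.3 and HSP90AA1 was among the highest.

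**Figure D5:**
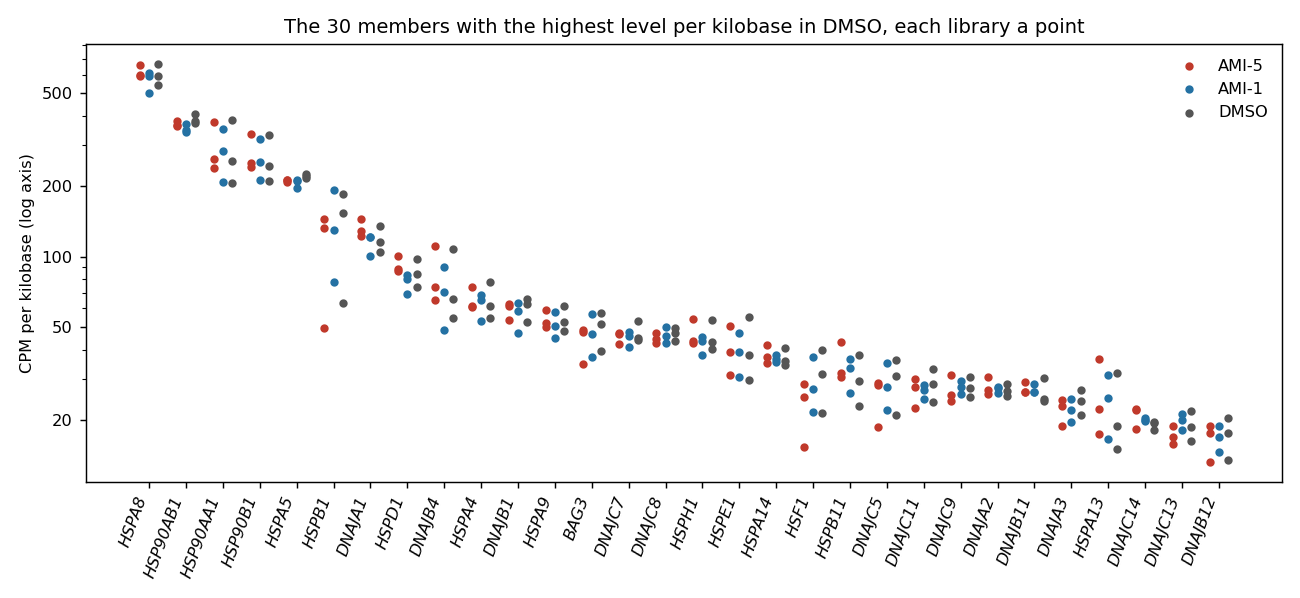
CPM per kilobase of the longest transcript (vertical log axis) of the 30 members with the highest control level, with AMI-5, AMI-1 and DMSO libraries from left to right and each library a point. HSPA8 leads at 601 CPM per kilobase in DMSO, and for most genes the spread within a group is as wide as the distance between groups.

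Partner genes outside the members were taken from 6 lists of 15 to 32 tested genes, and with the block 0 of their 108 genes was called for AMI-1 against control in edgeR (14 had an unadjusted p under 0.05, and DESeq2 without a block called 0). The GC-corrected fit called 2 of the 108 higher for AMI-1 (1.85%, background 1.3%), PPP1R15A among them, and 5 lower (4.63%, background 2.14%), BAG2, FKBP4, CCT3, CCT5 and PFDN4. For AMI-5 against control, 3 of the 108 were higher (2.78%, background 3.44%) and 11 lower (10.2%, background 7.51%) with the block, and 10 higher (9.26%, background 5.29%) and 12 lower (11.1%, background 8.34%) after GC correction.

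By list, for AMI-5 against control with the block, where 7.51% of all genes were lower and 3.44% higher, 2 of 16 exchange factors and ATPase cofactors of Hsp70 were lower and 0 higher, the J-domain kinase GAK (log2 −0.35, edgeR adjusted p 0.0029), which strips clathrin with Hsc70, and STUB1 (−0.32, 0.016), the ubiquitin ligase CHIP. Of 22 genes in the list of Hsp90 cofactors 2 were lower and 0 higher. They were TRAP1 (−0.27, 0.016), itself the mitochondrial Hsp90 and not a cofactor, and the phosphatase PPP5C (−0.20, 0.041). Of 15 genes of the TRiC chaperonin and prefoldin 1 was lower and 0 higher, PFDN2, a prefoldin subunit, at 55.1, 51.5 and 59.1 CPM with AMI-5, 68.3, 66.4 and 64.4 CPM with AMI-1 and 67.1, 68.2 and 68.3 CPM in control libraries. The AMI-5 libraries of PFDN2 lay below all others (log2 −0.30, edgeR adjusted p 0.0087), and its control libraries lay within 67.1 to 68.3 CPM.

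Of 15 mitochondrial chaperones and proteases 3 were lower and 0 higher with AMI-5 against control (all genes 7.51% and 3.44%), TRAP1 again (it is in both lists), the Lon protease LONP1 (−0.24, edgeR adjusted p 0.038) and the inner membrane protease subunit SPG7 (−0.27, 0.010). The medians of these 4 lists were −0.04, −0.06, −0.02 and −0.11, against −0.00 for all genes. After GC correction STUB1, PPP5C and LONP1 were no longer called (adjusted p 0.12, 0.055 and 0.47), while GAK, TRAP1, PFDN2 and SPG7 were. With that correction the Hsp70 cofactors had 0 higher and 2 lower, and the Hsp90 cofactors 1 and 2. TRiC and prefoldin had 1 and 3, and so did the mitochondrial list. In the corrected fit 5.29% of all genes were higher and 8.34% lower.

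Of 32 genes of the endoplasmic reticulum and its stress response, 2 were higher and 2 lower with AMI-5 against control (all genes 3.44% and 7.51%; median log2 0.04), and 4 were higher and 1 lower after GC correction (all genes 5.29% and 8.34%). CHAC1, a glutathione-degrading enzyme downstream of ATF4, had 8.69, 6.37 and 10.1 CPM with AMI-5, 5.54, 4.53 and 4.66 CPM with AMI-1 and 7.30, 4.17 and 5.96 CPM in control libraries, and rose by 0.55 on the log2 scale (edgeR adjusted p 0.014). ATF3, an immediate stress transcription factor, rose by 0.52 (adjusted p 0.019). SDF2L1, a lumenal partner of ERdj3, fell by 0.36 (adjusted p 0.0058; 0.093 with GC correction), and ATF6B, a membrane-bound transcription factor of the same response, fell by 0.32 (adjusted p 0.0062).

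Of 17 other heat shock factors and target genes, 1 was higher and 2 lower with AMI-5 against control (all genes 3.44% and 7.51%), and 3 were higher and 2 lower after GC correction (all genes 5.29% and 8.34%). HMOX1, heme oxygenase 1, which oxidative stress induces, had 28.3, 56.6 and 29.9 CPM with AMI-5, 17.7, 15.2 and 13.9 CPM with AMI-1 and 18.1, 15.8 and 16.5 CPM in control libraries. The 3 AMI-5 libraries lay above all others and library 2 was the highest, as it was for HSPA1B. HMOX1 rose by 1.13 on the log2 scale (edgeR adjusted p 0.020; 0.079 with GC correction), and was also called by DESeq2 without a block. IER5, an HSF1 target, fell by 0.28 (adjusted p 0.017), and SERPINH1, the collagen chaperone Hsp47, fell by 0.21 (adjusted p 0.028).

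Between the compounds, 4 of the 108 partner genes were higher with AMI-5 than with AMI-1 with the block (3.7%, background 1.62%) and 6 were lower (5.56%, background 3.48%); after GC correction 16 were higher (14.8%, background 4.99%) and 10 lower (9.26%, background 6.85%). The 4 higher were HMOX1 (log2 1.25, edgeR adjusted p 0.021), CHAC1 (0.79, 0.0021), CRYAB (0.34, 0.027), the alpha-B crystallin, and BAG2 (0.26, 0.047), an inhibitor of the ligase CHIP. The 6 lower were GAK (−0.30, edgeR adjusted p 0.0099), SPG7 (−0.29, 0.0075), PPP1R15A (−0.31, 0.012), the stress-induced GADD34 that directs a phosphatase to eIF2 alpha, PFDN2 (−0.26, 0.024), SERPINH1 (−0.21, 0.039) and ATF6B (−0.24, 0.040). After GC correction HMOX1 was not called (adjusted p 0.076) and the other 9 were.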

How the data were processed

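Poly-A RNA of 9 HMEC-1 libraries was analysed. The authors deposited raw read counts per gene in a table for each compound, with the same control libraries in both (0 control counts differed). The submitters' processing notes list BWA, bedtools and the build hg19; for versions, annotation and strand setting, none is given in the sources used here. Neither table held a gene with a mean count under 10, so the 18293 genes in both were used, and 18284 passed filterByExpr.

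Counts were tested with edgeR 4.0.16 (R 4.3.3; TMM, robust quasi-likelihood F test, 1 fit over 9 libraries, Benjamini-Hochberg over all genes). The number as a block was an alternative: deviations of same-numbered libraries correlated at 0.431 to 0.871 in all 9 pairs, so the numbers pair the libraries. Library names in the deposited counts also share a prefix within each number, and its meaning is not given. The coefficient of variation between libraries that edgeR fitted, which may be technical, was 23.7% without and 5.64% with the block. GC correction used a lowess offset (span 0.3) per library on the longest GENCODE release 29 transcript. Other alternatives were DESeq2 1.42.0, other size factors, no filter, fits of 2 groups and leaving out each library. Steps were tested on simulated data. Log2 CPM used a prior count of 2; per-kilobase levels used that transcript's length. SE values follow from the F test.

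Genes planned to be given in full were 18 preset members and every member called in any comparison. Of each list, they were up to 4 genes with the lowest p. Some of these genes are given above without CPM by library or without a log2 value for each comparison. Members and lists were chosen with earlier results of these data known.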

Additional observations from a re-analysis of the deposited data

How the results depend on the processing

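Without the block, 0 members were called in all 3 comparisons under each alternative run (DESeq2 size factors, no filter, DESeq2, only 2 groups, each of 9 libraries left out). For AMI-5 against control, members called (share of all genes in brackets) were 5 with the replicate block (10.9%), 4 with DESeq2 size factors (10.7%), 5 with robust shrinkage off (10.9%), 4 with GC correction (13.6%), 6 with that correction and robust shrinkage off (13.2%), and 20 (13 higher, 7 lower; 24.1%) with only the 2 groups compared, each with the block; leaving out 1 library gave 1 to 16 (0.848% to 23.4%). For AMI-5 against AMI-1 they were 5 with the block (5.1%), 5 with DESeq2 size factors (4.98%), 5 with robust shrinkage off (5.01%), 5 with only the 2 groups (4.52%), 7 with GC correction (11.8%) and 9 with robust shrinkage off as well (11.1%); leaving out 1 library gave 0 to 17 (1.05% to 18.9%), the 17 without AMI-1 library 3. For AMI-1 against control they were 0 with the block (0.41%), 4 with GC correction with or without robust shrinkage (3.44% and 3.12%), and 0 to 2 with 1 library left out (0.0765% to 1.94%). Robust shrinkage off and the unfiltered fit of HSPA6 were chosen after seeing the data.

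Of 1764 recomputed values of the named members, 159 changed sign, 0 of them where either fit made a call. The cause of these shifts was not tested. Genes with few reads, HSPA6 above all, limit what this depth can show.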

Other observations

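Rows that the naming rule dropped were counted at levels that bear on their parent genes. HSP90AB3P averaged 126 CPM with AMI-5, 121 CPM with AMI-1 and 123 CPM in control libraries, HSP90B2P 124 CPM with AMI-5, 121 with AMI-1 and 116 in control libraries, HSPA8P1 56.2 CPM with AMI-5, 51.3 with AMI-1 and 55.02 in control libraries, and HSPB1P2 28.2 CPM with AMI-5, 35.7 with AMI-1 and 35.1 in control libraries. With AMI-5, with AMI-1 and in control libraries, HSPA9P1 averaged 48.1, 44.7 and 48.5 CPM. HSP90B3P averaged 67.5, 63.8 and 63.6 CPM, and HSP90AA4P 16.2, 15.8 and 17.8 CPM, in the same order. Reads of these pseudogenes and of HSP90AB1, HSP90B1, HSPA8, HSPB1, HSPA9 and HSP90AA1 cannot be fully separated by counting. Values of the parents are uncertain to that extent. HSPB1P2 was at 31.7, 15.2 and 37.7 CPM in AMI-5 libraries and at 45.9, 17.4 and 42.1 CPM in control libraries, with library 2 the lowest in each, as for HSPB1.

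HSPBP1, the exchange factor that the same rule dropped, averaged 54.2 CPM with AMI-5, 54.1 CPM with AMI-1 and 60.5 CPM in control libraries. Its log2 value for AMI-5 against control was −0.15 with the block (edgeR adjusted p 0.19) and 0.06 after GC correction (0.42). It was called in neither fit. For AMI-5 against AMI-1 the value was 0.005 with the block (edgeR adjusted p 0.98). There it was called higher after GC correction (0.15, adjusted p 0.030).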
